A study of Homo sapiens with 8 samples.

Results

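The S100 genes analysed here were the 10 members S100A2, S100A3, S100A4, S100A6, S100A10, S100A11, S100A13, S100A14, S100A16 and S100P, chosen by name from the 58302 genes of the deposited count table. All 10 passed the filter on low counts, which kept 14133 genes. Messenger RNA was sequenced from DLD1 cells, a human colorectal cancer line. In the OE-WT group the cells stably carried lentiviral constructs for the wild-type TRMT6 and TRMT61A subunits of the tRNA m1A58 methyltransferase, and in the CTRL group they carried the vector. Both groups had the DLD1 background and the same wash with cycloheximide before lysis, and there were 2 libraries per group, each sequenced in 2 lanes that the table does not separate. Whether each stable line was 1 clone or a pool was not stated, and neither was whether the libraries came from separate cultures, so the p-values measure the spread between these libraries only.

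S100 proteins are small calcium sensors with a pair of EF-hands, helix-loop-helix folds that hold a calcium ion, and most work as dimers. Calcium binding opens a cleft through which they grip annexins, cytoskeletal proteins or co-chaperones, and several are also released and bind cell surface receptors such as RAGE. In colon epithelium S100A6, S100A10, S100A11, S100A14 and S100P are known from normal or malignant cells, and S100P and S100A4 have long been linked with invasive colorectal cancer.

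The coding sequence of the second, canonical calcium loop is shown for the 4 members whose mRNA changed and for S100A11, an abundant member whose mRNA did not pass the test. Each line gives the 12 codons of the loop, 36 bases read 5′ to 3′ from GENCODE release 44 on GRCh38, and the capitals mark codons 1, 3, 5 and 12, which stand for residues that hold the calcium ion in a canonical loop.
S100P: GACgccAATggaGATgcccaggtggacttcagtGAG
S100A6: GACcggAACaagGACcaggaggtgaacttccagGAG
S100A14: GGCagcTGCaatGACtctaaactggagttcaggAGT
S100A10: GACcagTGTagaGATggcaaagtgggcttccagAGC
S100A11: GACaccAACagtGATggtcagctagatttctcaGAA
In S100P, S100A6 and S100A11, as in the other 5 members not printed, codon 12 was GAG or GAA, the glutamate codons. In S100A10 and S100A14 codon 12 was a serine codon, and codon 3 was TGT or TGC in place of an asparagine codon. S100A14 also had GGC, a glycine codon, at codon 1. S100A10 is the known family member that stays in its open form without calcium. The mRNAs of these 2 members moved in opposite directions, as given below with their values, and the rise of S100A10 was a call lost in most alternative settings.

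The promoters of S100P, the member with the largest change, and of S100A6, the most abundant member that fell, are shown because both are discussed below with their neighbours. The sequences are the 250 bases before the start of the RefSeq gene (GRCh38.p14), in the direction of the gene; capitals mark TATAAA in S100P (chr4:6693628-6693877, plus strand) and GGGCGG, the GC box, in S100A6 (chr1:153535992-153536241, minus strand).
S100P: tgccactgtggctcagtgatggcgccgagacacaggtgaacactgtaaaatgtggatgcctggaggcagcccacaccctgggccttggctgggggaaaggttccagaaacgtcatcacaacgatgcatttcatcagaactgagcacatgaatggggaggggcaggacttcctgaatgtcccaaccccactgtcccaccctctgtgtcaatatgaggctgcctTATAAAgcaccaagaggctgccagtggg
S100A6: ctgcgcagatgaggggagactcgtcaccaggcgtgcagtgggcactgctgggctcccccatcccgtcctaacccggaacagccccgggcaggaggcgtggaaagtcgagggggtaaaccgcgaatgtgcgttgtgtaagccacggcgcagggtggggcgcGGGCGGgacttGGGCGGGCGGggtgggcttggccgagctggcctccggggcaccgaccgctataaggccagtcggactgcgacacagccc
TATAAA began 28 bases before the start of S100P and 31 bases before that of S100A4, and no other member held these letters on either strand. Of 35116 RefSeq promoters searched over the same 250 bases on both strands, 10.7% held TATAAA. The GC box GGGCGG was found in 5 members, S100A3, S100A6, S100A10, S100A11 and S100A13, and in 42.6% of all promoters. In S100A6 it occurred at 90, 79 and 75 bases before the start, the latter pair overlapping. TGANTCA, the AP-1 site, was found in S100A2 and S100A3 and in 6.57% of all promoters, and CACGTG, an E-box, was found in no member and in 6.34% of all promoters. Each member was searched at 1 RefSeq start, which can differ from the start of the gene span given below. The S100A13 window, chr1:153634362-153634611, lies outside its span and within the neighbouring gene CHTOP. The windows of S100A2, S100A4, S100A6, S100A11 and S100A14 lie inside their spans. A match describes the letters of this window only.

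The counts on genes summed to between 10327498 and 12379671 per library, and Pearson's r of log2 CPM, the counts divided by library sizes after TMM normalization, across genes, which are not independent replicates, was 0.990 within OE-WT and 0.992 within CTRL and between 0.977 and 0.983 across the groups. TRMT6 stood at 211 and 181 CPM in OE-WT and at 52.6 and 55.4 CPM in CTRL, and TRMT61A at 138 and 130 against 58.9 and 56.8 CPM, both higher where the labels say so. All 9 colon epithelial markers were tested, with KRT8 between 4973 and 6109 CPM, while VIL1 and LGALS4 had at most 45 and 13 counts in any library. Of 9 markers of immune, stromal and endothelial cells, CD3E and COL3A1 had 0 counts in all 4 libraries, and the summed level of the 9 was 5.84 and 4.72 CPM in OE-WT and 7.23 and 5.20 CPM in CTRL.

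Of the 10 members, 4 changed at an adjusted p below 0.05, by the quasi-likelihood test of edgeR with p-values adjusted over the 14133 genes by the Benjamini-Hochberg method. S100P, S100A6 and S100A14 fell and S100A10 rose. Among all genes tested, 21.1% passed the same test, 9.44% higher and 11.6% lower in OE-WT. The 4 called members were all among the 6 with a mean of at least 300 counts, and 35.8% of the 4712 genes at or above that mean were called. S100P alone passed the thresholds used in the study, a log2 fold change beyond 1 in either direction with an unadjusted p below 0.05, which 3.15% of all genes passed. The libraries of the groups did not overlap in 7 members, 5 lower and 2 higher in OE-WT, and in 60.2% of all genes. The median log2 fold change of OE-WT over CTRL was -0.19 over the 10 members and 0.01 over all genes tested.

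S100P (ENSG00000163993, chr4:6693878-6697170, plus strand), a secreted ligand of RAGE and an intracellular partner of ezrin, stood at 16.9 and 22.0 CPM in OE-WT and at 60.7 and 48.9 CPM in CTRL. Every OE-WT library was below every CTRL library. The level was 19.5 ± 3.60 CPM (SD, n = 2) in OE-WT and 54.8 ± 8.32 CPM (SD, n = 2) in CTRL, 2.81-fold higher in CTRL, and the log2 fold change was -1.49 (SE 0.12, adjusted p = 1.9e-08, edgeR's quasi-likelihood test). In bulk RNA, fewer cells that hold a transcript and less of it per cell cannot be told apart. When 1 library was left out the log2 fold change lay between -1.71 and -1.32.

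S100A6 (ENSG00000197956, chr1:153534599-153536244, minus strand), which binds annexins and the ubiquitin ligase adaptor CACYBP, stood at 187 and 203 CPM in OE-WT and at 273 and 245 CPM in CTRL. The OE-WT libraries were again the lower pair, without overlap. The log2 fold change was -0.41 (SE 0.07, adjusted p = 2.5e-04, edgeR's quasi-likelihood test). Its exons share 37 bases with an antisense long noncoding gene that had at most 1 count in any library.

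S100A14 (ENSG00000189334, chr1:153614255-153616986, minus strand), an epithelial member that can bind RAGE and lies next to S100A16, stood at 94.4 and 102 CPM in OE-WT and at 125 CPM in both CTRL libraries. The groups did not overlap, and OE-WT was lower. The log2 fold change was -0.34 (SE 0.07, adjusted p = 1.1e-03, edgeR's quasi-likelihood test).

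S100A10 (ENSG00000197747, chr1:151982915-151993859, minus strand), the partner of annexin A2 that docks plasminogen and ion channels at the plasma membrane, stood at 607 and 653 CPM in OE-WT and at 560 and 543 CPM in CTRL. Both OE-WT libraries were above both CTRL libraries. The log2 fold change was 0.19 (SE 0.07, adjusted p = 0.041, edgeR's quasi-likelihood test). This call was lost in 9 of 11 alternative settings, whose adjusted p reached 0.452 when counts were scaled by library size alone, and the log2 fold change was 0.13 without OE-WT replicate 2. A replicate block gave an adjusted p of 0.127.

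**Figure D1:**
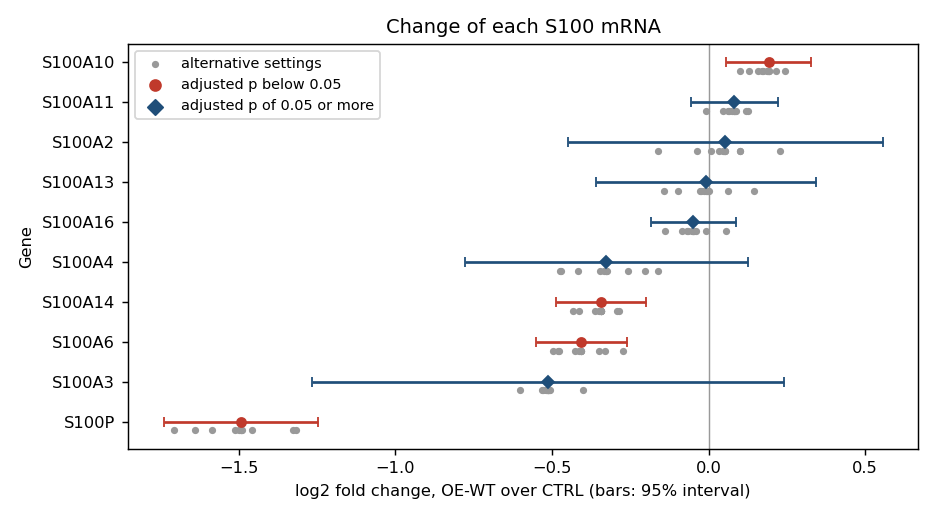
Log2 fold change of OE-WT over CTRL (x axis) for each of the 10 S100 genes (y axis), with bars for the 95% interval from 2 libraries per group and grey points for the 11 alternative settings. Circles mark an adjusted p below 0.05 and diamonds the rest: S100P lies at -1.49, apart from S100A6 at -0.41 and S100A14 at -0.34, and S100A10 lies at 0.19.

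The other 6 members did not pass the test, and the width of their intervals followed their counts. S100A11 (ENSG00000163191, chr1:152032506-152047907, minus strand), a partner of annexin A1 in membrane repair, stood at 116 and 117 CPM in OE-WT and at 113 and 107 CPM in CTRL. The pairs lay close together but did not overlap, and the 95% interval of the log2 fold change ran from -0.06 to 0.22 around 0.08. S100A16 (ENSG00000188643, chr1:153606886-153613145, minus strand), a broadly expressed member, stood at 170 and 166 CPM in OE-WT and at 178 and 169 CPM in CTRL. Its groups overlapped, and its interval ran from -0.18 to 0.09. For these 2 abundant members, changes of the size of those of S100A6 and S100A14 lie outside the interval.

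S100A4 (ENSG00000196154, chr1:153543613-153550136, minus strand), which binds non-muscle myosin heavy chain and is known for its part in cell motility, had 40 and 49 counts in OE-WT against 79 and 61 in CTRL. After scaling, the OE-WT pair was the lower, at 4.03 and 4.82 CPM against 6.14 and 4.95 CPM, and the interval of the log2 fold change ran from -0.78 to 0.12. S100A3 (ENSG00000188015, chr1:153547329-153549258, minus strand), a member known from hair cuticle, had 12 counts in each OE-WT library against 22 and 21 in CTRL. Its pairs did not overlap either, at 1.21 and 1.18 CPM against 1.71 and 1.70 CPM, and its interval ran from -1.27 to 0.24. S100A3 and S100A4 overlap as gene spans on the same strand but share no exon bases. At these counts a change of the size of that of S100A6 lies inside both intervals.

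S100A13 (ENSG00000189171, chr1:153618787-153631360, minus strand), which takes part in the unconventional release of FGF1 and IL1A, had 87 and 90 counts in OE-WT against 125 and 98 in CTRL. Its level was 8.80 ± 0.057 CPM (SD, n = 2) in OE-WT and 8.84 ± 1.25 CPM (SD, n = 2) in CTRL, and the groups overlapped. The interval ran from -0.36 to 0.34. S100A13 shares 235 of its 2216 exon bases with S100A1 on the opposite strand, so without a stated strand setting of the counting the reads of the 2 genes cannot be fully told apart. It also shares 536 exon bases on the same strand with ENSG00000271853, which had 0 counts in every library. How reads on those bases were counted was not tested. S100A2 (ENSG00000196754, chr1:153561108-153567890, minus strand), a member typical of stratified epithelium, had 33 and 44 counts in OE-WT against 49 and 44 in CTRL. Its groups overlapped, and its interval ran from -0.45 to 0.56.

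The other S100 genes were near or at 0. S100A1, a muscle and brain member, had 14 and 9 counts in OE-WT against 15 and 16 in CTRL, and its adjusted p was 0.886 by edgeR's quasi-likelihood test. S100A5 had 10 and 15 counts in OE-WT against 9 and 8 in CTRL, with a log2 fold change of 0.87, an unadjusted p of 0.068 and an adjusted p of 0.182. S100A8 and S100A9, the subunits of calprotectin and typical of neutrophils, had at most 2 and 1 counts in any library, and S100Z had at most 1. S100A7, S100A7A, S100A7L2, S100A12, S100B and S100G had 0 counts in all 4 libraries, which allows up to 0.233 to 0.302 CPM per library. Of these 11 genes, 2 were tested and 0 were called by edgeR, 0 had an unadjusted p below 0.05, and DESeq2 gave neither an adjusted p.

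Levels of the members were compared per kilobase of exon. S100A10 was the most abundant in both groups, with 623 CPM per kilobase in OE-WT and 545 in CTRL, followed by S100A6 with 201 and 267 and S100A11 with 179 and 169. All 6 members with a mean of at least 300 counts lay at or above the 96.1 percentile of the genes tested on this scale. S100A4, S100A13, S100A2 and S100A3 lay far below, between 4.68 and 1.42 CPM per kilobase in OE-WT and between 5.86 and 2.03 in CTRL.

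S100P moved furthest in this order, and S100A16 and S100A14 each stood 1 place higher in OE-WT. In CTRL it ranked 4 with 116 CPM per kilobase, overlapping with S100A16 at 102, and in OE-WT it ranked 6 with 41.3 CPM per kilobase, below S100A16 at 98.8 and S100A14 at 77.0. No other neighbours in the order overlapped in their libraries. With the length of the canonical transcript in place of all exon bases, S100P ranked 6 in both groups and S100A13 stood above S100A4, so these places depend on the length used.

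**Figure D2:**
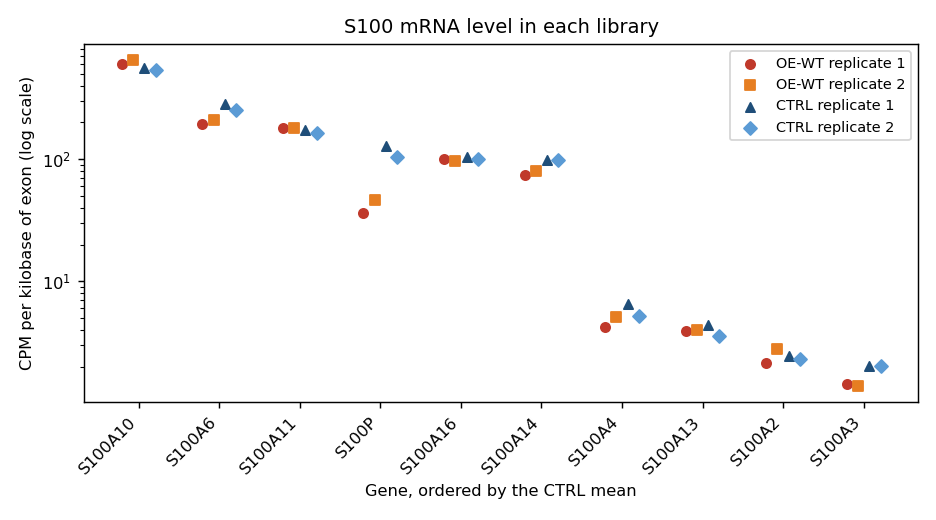
CPM per kilobase of exon on a log axis (y axis) for each S100 gene, ordered by the CTRL mean (x axis), with 1 point per library. The OE-WT points of S100P, 35.9 and 46.7, sit below its CTRL points, 129 and 104, while 4 members lie under 7 CPM per kilobase in every library.

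The members together held 0.115% and 0.126% of all counts in OE-WT against 0.138% and 0.128% in CTRL, and their summed level was 1246 ± 51.1 CPM (SD, n = 2) in OE-WT and 1294 ± 52.3 CPM (SD, n = 2) in CTRL. The groups overlapped in summed CPM, between 1210 and 1282 in OE-WT and between 1257 and 1331 in CTRL. The make-up of this sum differed more than its size. S100A10 made up 50.2% and 50.9% of the members' counts in OE-WT against 42.1% and 43.2% in CTRL. S100A6 made up 15.5% and 15.9% in OE-WT and 20.5% and 19.5% in CTRL, and S100P made up 1.40% and 1.72% against 4.56% and 3.90%. S100A10, the only member called higher, was then left out. The other members held 0.0596% ± 0.0034 (SD, n = 2) of all counts in OE-WT and 0.0765% ± 0.0051 (SD, n = 2) in CTRL. The groups did not overlap in this share, and neither did they in 60.2% of all genes tested. The shares are of total counts without TMM scaling, and they were not tested.

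**Figure D3:**
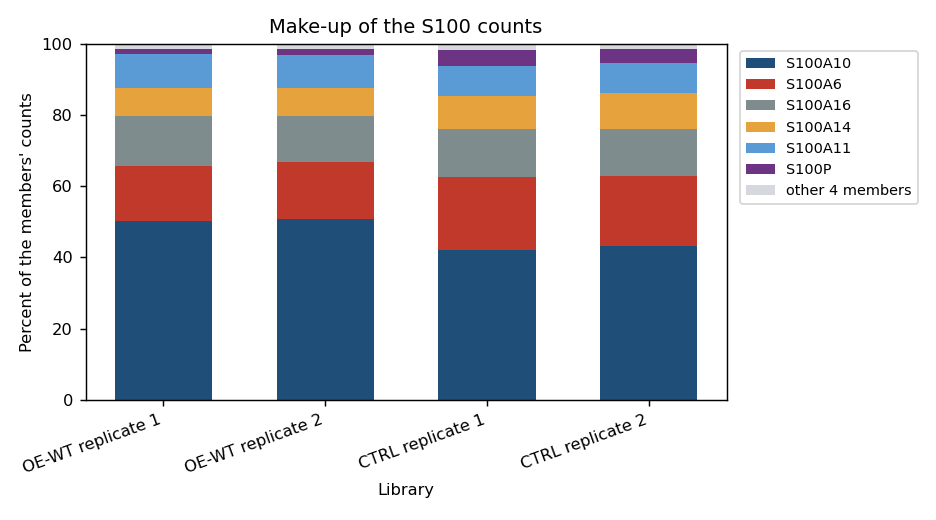
Percent of the members' counts (y axis) held by each S100 gene in each of the 4 libraries (x axis), as stacked bars that sum to 100. The S100A10 part is 50.2 and 50.9 in OE-WT and 42.1 and 43.2 in CTRL, and the S100A6 and S100P parts are smaller in OE-WT.

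The annexins and membrane proteins that S100 dimers bind were described next. Like the lists below, this list was chosen with earlier results of these data known. Of 9 tested genes, 2 rose and 0 fell, 22.2% called beside 21.1% of all genes, and 1 was called with library size only. ANXA6, a calcium-dependent membrane binder that S100A6 is known to contact, rose with a log2 fold change of 0.35, and ANXA5 rose by 0.28. ANXA2, the partner of S100A10, stood at 2084 and 2141 CPM in OE-WT and at 2361 and 2307 CPM in CTRL, with a log2 fold change of -0.14 and an adjusted p of 0.144 by edgeR's quasi-likelihood test. The groups did not overlap for ANXA2, although its change did not pass the test. ANXA1, the partner of S100A11, had a log2 fold change of 0.02 and overlapped between the groups.

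Among 11 tested cytoskeletal targets, 3 rose and 2 fell, 45.5% called beside 21.1% of all genes. Among genes with a mean of at least 300 counts, 35.8% were called. The 5 calls were 3 with library size only, every gene of at least 1 count, a replicate block, the GC trend removed, or DESeq2. TPM1, a tropomyosin of actin filaments, rose from 144 and 149 CPM in CTRL to 256 and 243 CPM in OE-WT, a log2 fold change of 0.76. TPM2 fell by 0.68 on the log2 scale, from 9.33 and 9.01 to 5.94 and 5.50 CPM, so these 2 tropomyosins moved in opposite directions. EZR, the membrane-actin linker that S100P activates, fell from 516 and 524 CPM to 407 and 424 CPM, a log2 fold change of -0.32. TPM3 and CAPZA1, an actin capping subunit, rose by 0.22 and 0.23. MYH9, the myosin heavy chain bound by S100A4, had a log2 fold change of -0.13 and an adjusted p of 0.170.

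Among the partners that serve the ubiquitin system, MDM2, a ubiquitin ligase that several S100 proteins bind, rose from 11.8 and 10.5 CPM to 15.5 and 15.4 CPM, a log2 fold change of 0.47. SUGT1 and CACYBP, both bound by S100A6, rose with log2 fold changes of 0.31 and 0.30. These calls depended on the setting: 0 of the 3 genes were called by edgeR with library size alone, and only CACYBP was called with DESeq2 or without CTRL replicate 2.

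The co-chaperones with tetratricopeptide repeats, another class of S100 partners, had 4 of 8 tested genes higher, beside 9.44% of all genes, and 0 lower. Of the 4712 genes with a mean of at least 300 counts, 775 were called higher. The median log2 fold change of the co-chaperones was 0.17 against 0.01 over all genes. FKBP5, an immunophilin of the steroid receptor complexes, rose from 4.28 and 5.68 CPM to 10.7 and 9.83 CPM, a log2 fold change of 1.04. PPID, STIP1 and FKBP4 rose by 0.35, 0.33 and 0.28 on the same scale.

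The receptors and release factors had 3 of 5 tested genes lower, beside 11.6% of all genes, and 0 higher. Of the 4712 genes with a mean of at least 300 counts, 911 were called lower. MCAM, an adhesion receptor for S100A8 and S100A9, fell from 5.21 and 5.20 CPM to 0.705 and 1.97 CPM, a log2 fold change of -1.95 that rests on 7 and 20 counts in OE-WT. BSG, another S100A9 receptor, stood at 1357 and 1500 CPM in OE-WT and at 1896 and 1777 CPM in CTRL and fell by 0.36 on the log2 scale, and NPTN, a receptor of S100A8, fell by 0.32. AGER, the gene of RAGE, had 8 and 9 counts in OE-WT against 19 and 19 in CTRL, and its adjusted p was 0.156. TLR4 had 0 counts in all 4 libraries, and the S100A13 cargo genes FGF1 and IL1A had at most 2 and 3 counts.

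S100A10 was higher in OE-WT, a call lost with DESeq2 and with a replicate block. Of 5 tested genes of the S100A10 cargo and plasmin list, 3 fell, beside 11.6% of all genes, and 0 rose. The 3 were the plasminogen activators and the urokinase receptor, which act with S100A10 at the cell surface, and the other 2, the channels TRPV6 and ASIC1, had log2 fold changes of 0.50 and -0.17 and did not pass the test. PLAUR, the urokinase receptor, stood at 78.5 and 89.3 CPM in OE-WT and at 141 and 132 CPM in CTRL, a log2 fold change of -0.71. PLAU, urokinase, fell from 31.1 and 26.6 CPM to 15.2 and 17.7 CPM, by 0.81, and PLAT, tissue plasminogen activator, fell by 0.89. In all 3 the groups did not overlap, as in 60.2% of all genes. Plasminogen itself, PLG, had 0 counts in all 4 libraries, and the channels TRPV5, KCNK3 and SCN10A, which S100A10 carries to the membrane in other tissues, were also at 0.

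**Figure D4:**
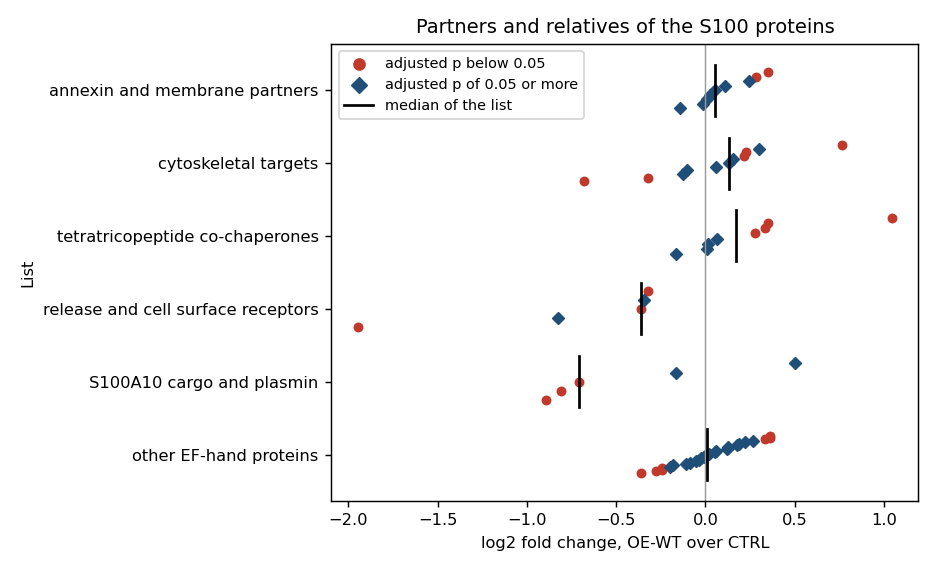
Log2 fold change of OE-WT over CTRL (x axis) for every tested gene of 6 lists of S100 partners and related EF-hand proteins (y axis), circles for an adjusted p below 0.05, diamonds for the rest and a black line for each median. The receptor and plasmin lists have medians of -0.36 and -0.71, and the lowest point is MCAM at -1.95.

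Calcium sensors outside the family moved both ways. Of 26 tested EF-hand proteins, 3 rose and 4 fell, 26.9% called beside 21.1% of all genes, with a median log2 fold change of 0.01, as over all genes. PPP3R1, the regulatory subunit of calcineurin, PEF1 and EFHD2 rose by 0.36, 0.36 and 0.33, while NUCB1, RCN2 and SDF4, calcium binders of the secretory pathway, fell by 0.36, 0.28 and 0.25. The fused S100 genes, large proteins of the skin with an S100 domain at their start, were near 0: FLG had 34 and 29 counts in OE-WT against 24 and 22 in CTRL, with an unadjusted p of 0.014 and an adjusted p of 0.060, HRNR had an adjusted p of 0.837, and 0 of the 2 tested were called by edgeR, while DESeq2 gave neither an adjusted p; edgeR called 1, FLG, with at least 10 counts in every library or with the GC trend removed.

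KRT20, a keratin of differentiated colon epithelium, stood at 8.36 and 9.93 CPM in OE-WT and at 27.1 and 25.3 CPM in CTRL, a log2 fold change of -1.52, close in size to that of S100P. Of the 9 epithelial markers, 2 rose and 3 fell, 55.6% called. Over all genes 21.1% were called, and 35.8% of genes with a mean of at least 300 counts. KRT18 and KRT8 rose by 0.30 and 0.25, and CDH1 and KRT19 fell by 0.29 and 0.19 beside KRT20. These 5 calls were 3 with library size only, with a replicate block, without OE-WT replicate 2 and without CTRL replicate 2. EPCAM had a log2 fold change of -0.08. VIL1, LGALS4 and CDX2, also intestinal markers of this list, did not fall with KRT20. Their log2 fold changes were 0.55, 0.20 and 0.18, and they did not pass the test. Of the 3 tested markers of other cell types, VWF fell, on 5 and 6 counts in OE-WT against 30 and 14 in CTRL. This call was lost without OE-WT replicate 1 and without CTRL replicate 1, and VWF was not tested under the stricter count filter and had no adjusted p from DESeq2. The part of these changes in those of the S100 genes was not tested.

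Of the members, 9 lie on chromosome 1 and S100P lies on chromosome 4. In the stretch from S100A9 to S100A13 and 250 kb to either side, 4 of 9 tested genes outside the family were called. Over all genes 21.1% were called, and 35.8% of genes with a mean of at least 300 counts. SLC27A3, a fatty acid transporter, fell from 51.9 and 50.5 CPM to 22.7 and 24.6 CPM, a log2 fold change of -1.12, and PRR9, a gene of the epidermal differentiation complex, rose from 17.1 and 17.6 CPM to 34.6 and 47.1 CPM, a log2 fold change of 1.23. ILF2 and CHTOP, RNA-binding proteins, rose by 0.28 and 0.21. Within the same stretch S100A6 and S100A14 fell and S100A16, which lies between them, did not pass the test, so the genes there did not move in 1 direction.

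Around S100A10 and S100A11, 1 of 7 tested neighbours was called, beside 21.1% of all genes. It was the antisense gene FLG-AS1, at 2.32 and 1.57 CPM in OE-WT against 0.389 and 1.06 CPM in CTRL. This call rests on 23 and 16 counts in OE-WT against 5 and 13 in CTRL. Around S100P, 2 of 8 were called, beside the same 21.1% of all genes. MRFAP1 rose by 0.39 and MAN2B2, a lysosomal mannosidase, fell by 0.24 on the log2 scale. No called neighbour of S100P changed by as much as S100P.

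The codon make-up of the members was examined because the study followed tRNAs that read GAC (aspartate), GAG (glutamate), GCA (alanine) and TTG (leucine). S100 coding sequences are short, from 90 codons in S100A6 to 105 in S100A11, and rich in the acidic residues of the calcium loops. GAC and GAG together made up between 7.62% of codons in S100A11 and 14.9% in S100A3, and the median of the 11609 coding genes tested that had a coding sequence was 6.43%. S100P had 12.6%, S100A14 11.5% and S100A6 11.1%, at the 96.6, 94.0 and 92.2 percentile of these genes. S100A10 had 8.25%, at the 71.9 percentile. The members not called reached both ends of the range, from S100A11 at the 65.1 percentile to S100A3 at the 98.9 percentile. All 4 codons together made up between 8.57% in S100A11, at the 34.9 percentile and below the median of 9.46%, and 19.4% in S100A13, at the 99.6 percentile. Across transcripts, the paper found no simple linear relation of GAC and GAG frequency to the change in translation efficiency. Codon content is a property of the sequence, and the data here measure mRNA and not translation.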

How the data were processed

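RNA sequencing of DLD1 cells was analysed, with 2 libraries for OE-WT and 2 for CTRL. Per the labels, poly(A) RNA was selected from the lysate supernatant and made into strand-specific libraries; the methods of the paper give ribosomal RNA depletion and 3 biological replicates. The authors used Cutadapt for trimming and HISAT2 for alignment to GRCh38, and made read counts per gene by HTSeq in those methods and by featureCounts 2.0.0 in the submitters' processing notes, which also name HISAT2 2.2.1 and DESeq2 1.34.0. The deposited values are raw counts, checked to be whole numbers. The strand setting and annotation release of the counting are not given in the sources used here.

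Symbols, coordinates and coding sequences came from GENCODE release 44, which matched 57532 of 58302 identifiers, and promoters from RefSeq. Counts were filtered by group (minimum count 10), normalized by TMM and tested with the quasi-likelihood test of edgeR 4.0.16 in R 4.3.3, with no replicate block; p-values were adjusted by the Benjamini-Hochberg method over 14133 genes. The thresholds were an adjusted p below 0.05 and, separately, those of the study. The standard error of a log2 fold change was its size over the root of the F statistic. Levels per kilobase are CPM divided by the length of all exon bases. The limit for a gene at 0 is 3 counts per library and covers counting error only. With 2 libraries per group an exact two-sided permutation test cannot give a p below 1 in 3, so none was used.

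The members and lists were chosen with earlier results of these data known, and list members came from general knowledge. The genes named are TRMT6, TRMT61A, every S100 gene, ANXA1, ANXA2, up to 6 called genes per list by size of change, and called neighbours within 250 kb; MYH9, AGER, HRNR, FLG, EPCAM, VIL1, LGALS4, PLG, TLR4, FGF1, IL1A, CD3E, COL3A1, TRPV5, TRPV6, ASIC1, KCNK3 and SCN10A were named after their values were seen. Other settings tried were looser and stricter count filters, DESeq2 1.42.0, scaling by RLE or by library size only, a replicate block, a GC trend (lowess, span 0.3) removed per library, and each library left out in turn. Refits with 3 libraries and canonical transcript lengths were added after the data were seen, as was the naming of CDX2. The steps were tested on simulated counts with 200 genes changed. The same-numbered libraries did not deviate together (r = -0.07), so the numbers were not used as pairs. Libraries of 1 group differed by more than sampling noise (chi-square per degree of freedom 4.42 in CTRL and 4.94 in OE-WT). Lanes were not analysed apart. A gene of the list of ubiquitin system partners, and the counts of that list, are not reported here.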

Additional observations from a re-analysis of the deposited data

How the results depend on the processing

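S100P, S100A6 and S100A14 kept their direction in all 11 alternatives, with log2 fold changes between -1.71 and -1.32, -0.50 and -0.27, and -0.43 and -0.29. In every alternative that kept all libraries, their adjusted p stayed below 0.05. S100A10 stayed above 0, between 0.10 and 0.24, and passed in 2 of 11: RLE size factors and without OE-WT replicate 1. Only members that did not pass the test turned direction. These were S100A2 (-0.038 with library size only, -0.16 to 0.23 with a library left out), S100A11 (-0.0095 with library size only), S100A13 (0.061 with the GC trend removed, -0.14 to 0.15 with a library left out) and S100A16 (0.055 with the GC trend removed); the cause was not tested. Library size only moved the median log2 fold change of all genes from 0.01 to -0.08 and gave 733 genes higher and 2451 lower, against 1334 and 1642. The GC trend removal gave 1393 higher and 1460 lower.

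Over all genes, 2976 passed an adjusted p below 0.05, against 1377 with DESeq2 and between 1903 and 2852 with a library left out, lowest without CTRL replicate 1. The study's thresholds were passed by 445 genes, against 738 with every gene of at least 1 count, 216 with at least 10 counts in every library and 287 with DESeq2. A replicate block, for libraries that share only a number, gave 2658 called genes and 3 of 5 calls in the cytoskeletal and in the epithelial list. As a share of protein-coding counts the members held 0.135% in OE-WT and 0.145% in CTRL. With a library left out, the lone library of its group is assumed to vary like the others. S100A2, S100A3, S100A4 and S100A13 had at most 125 counts in any library and the widest intervals.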
